A study of Gallus gallus with 40 samples.

Results

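The genes described here are 10 chicken genes of macrophages and of the complement system, measured by microarray in the breast muscle of broilers with white striping (WS) or wooden breast (WB). They are C1QA, C1QB and C1QC, the chains of complement C1q; CTSS and CTSD, the lysosomal proteases cathepsin S and cathepsin D; MARCO and TLR4, receptors at the cell surface; SPI1, a transcription factor; CYBB, the catalytic subunit of the phagocyte NADPH oxidase; and CSF1R, the receptor for the growth factor CSF1. The genes were chosen by symbol, and every probe whose RefSeq transcript belongs to one of them was taken. A probe was found for 9 of the 10 genes, with 10 probes among the 56401 on the array, of which 25956 could be named to 13912 genes. No transcript of the array was matched to CSF1R, which was not analysed here. CTSS had 2 probes, designed on NM_001031345.1 and XM_015280007.1, and the first, with the higher mean signal, stands for the gene unless the other is named.

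Macrophages engulf dying cells and debris, digest them in lysosomes and present fragments of them to other cells. C1q opens the classical complement pathway and also tags debris for removal. Its chains are encoded by neighbouring genes, and in mammals macrophages are a main source of it. In damaged skeletal muscle, macrophages clear necrotic fibres and then take part in repair, and SPI1 (PU.1) sets the myeloid programme that many of these genes belong to.

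Each array carried RNA of the pectoralis major of 1 bird, and the 40 arrays lay on 5 slides. White lines along the fibres define WS, and a hardened fillet defines WB. The WS part of the series has 21 arrays, titled non-WS (n = 4), mild WS (n = 7), moderate WS (n = 6) and severe WS (n = 4). Its methods name 7-week-old males from which fillets with WB had been excluded, with fewer mild WS arrays than here. Another label field of these arrays files the WS level under the wooden breast defect, so that the titles were followed. The methods of the study state that no bird free of striping was found, and non-WS is the wording of the titles. Age, sex and WB status of the 4 non-WS birds are thus not given by the methods. The labels name commercial ROSS broilers for all arrays. The WB part has 19 arrays of males from 5 farms, 11 non-WB and 8 severe WB. At 49 days the non-WB birds had mild WS (n = 3) or moderate WS (n = 4), and the severe WB birds also had mild WS (n = 2) or moderate WS (n = 3). At 45 days or under, the non-WB birds had severe WS (n = 4) and the severe WB birds mild WS (n = 3), so that WB and striping level cannot be told apart at that age.

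The levels below are normalized intensities, that is, background-subtracted spot signals brought to a common distribution over the arrays of each part, with the parts normalized apart. Levels of different probes are not comparable with each other. A sum over a gene list adds linear levels, so that its brightest probes weigh most. The median signal of an array was 121.8 to 297.9 in severe WB, 124.4 to 179.3 in non-WB and 76.4 to 258.6 in the WS part, and no spot of the 10 probes was saturated. Markers of muscle fibres were high on every array, with 5 probed genes of that list summing to 748700 or more on each WB array and 805800 or more on each WS array. On every slide the position of an array changed with its group, so that position and group cannot be told apart. A fold change was called at a false discovery rate (FDR) of 0.05 or less, adjusted with limma over all probes tested, and an absolute fold change of 1.2 or more.

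In severe WB, 8 of the 9 macrophage and complement genes were more abundant than in non-WB. Over all ages they had log2 fold changes between 0.98 and 1.91, with CTSD as the exception at 0.36. The fit over all ages had no term for striping or age. Severe WS occurred only in non-WB birds, so that striping level was not held equal between the groups. Of all 34281 probes tested, 13.3% were called higher. The median log2 fold change was 1.16 over the 9 genes and -0.03 over all probes. RNA of a whole muscle does not separate more cells of a type from more RNA per cell, and this holds for every result below. The calls depended on slide 5. With slides 3 and 4 only, 0 of the 9 genes and 0 of all probes were called by limma, 6 of the 9 at an unadjusted p under 0.05. The share of all probes at that limit is not given for this fit. Nor is it given for the later fits with fewer arrays or with the signal covariate. In the main fit over all ages, 6710 of the 34281 probes were higher and 7846 lower at that limit.

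**Figure D1:**
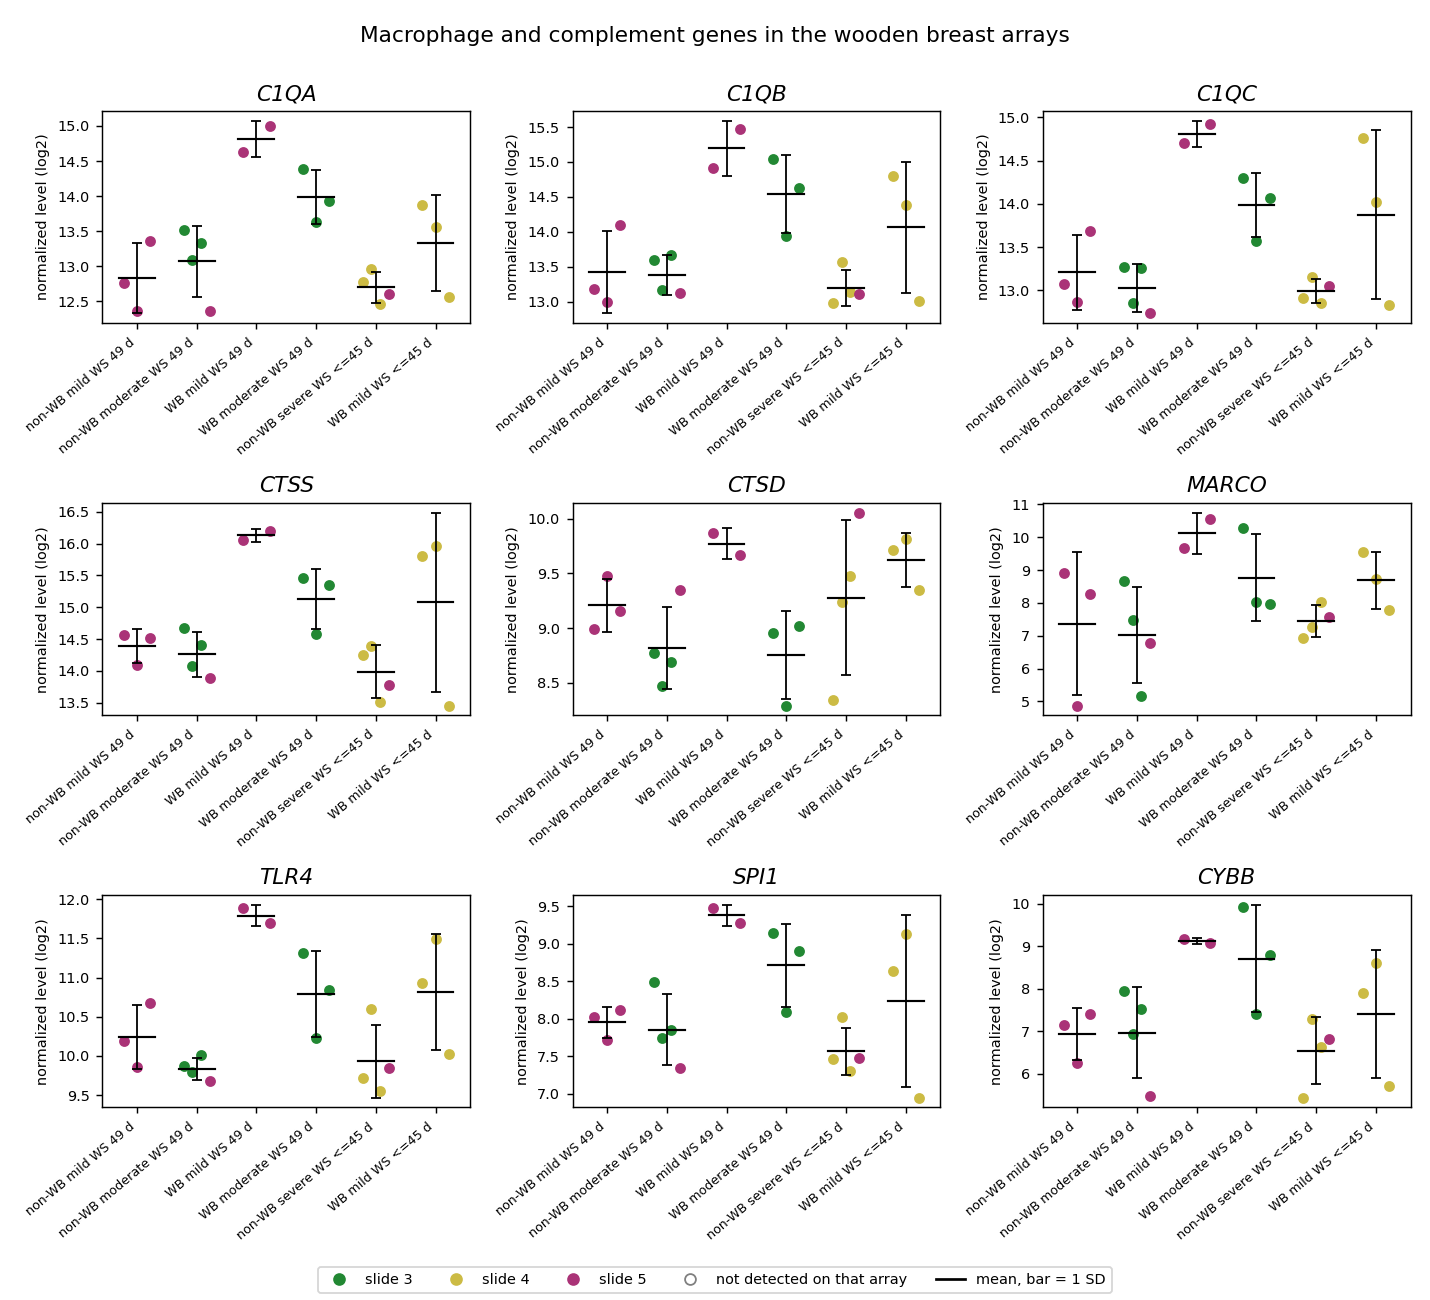
Normalized level (log2) of each of the 9 genes on the 19 WB arrays, by group, with 1 point per bird coloured by slide, the group mean as a line and 1 SD as a bar. Both WB birds with mild WS at 49 days lie above all non-WB birds for 8 of the 9 genes. Of the 3 WB birds at 45 days or under, 1 lies among the non-WB birds, or below them for CTSS and SPI1.

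All 3 chains of C1q rose in severe WB. The level of C1QA was 25430 and 32790 in the 2 severe WB birds with mild WS at 49 days, 21500, 12630 and 15670 in the 3 with moderate WS at 49 days, and 14980, 12020 and 6040 in the 3 at 45 days or under. In the 11 non-WB birds it lay between 5248 and 11750, with a median of 7009. Only the last of the 8 WB birds, replicate 3 at 45 days or under, fell within the non-WB range. C1QA rose 2.17-fold in severe WB (log2 fold change 1.12, SE 0.24, adjusted p = 0.0052). At 49 days all 5 WB birds exceeded all 7 non-WB birds, which no other of the 9 genes showed and which 2.04% of the probes tested showed in that direction.

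C1QB was measured at 30980 and 45600 in severe WB with mild WS at 49 days, at 33780, 15730 and 25250 in severe WB with moderate WS, and at 28560, 21420 and 8207 at 45 days or under. The non-WB birds ranged from 8076 to 17500 around a median of 9149. Of the 8 WB birds, 6 exceeded the highest non-WB bird. The difference was 2.39-fold (log2 fold change 1.26, SE 0.25, adjusted p = 0.00408).

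C1QC gave 26650 and 30980 in severe WB with mild WS, 20160, 12210 and 17230 with moderate WS, and 27880, 16680 and 7270 at 45 days or under, against 6802 to 13230 and a median of 8452 in non-WB. Again 6 of the 8 WB birds lay above every non-WB bird. C1QC rose 2.22-fold (log2 fold change 1.15, SE 0.22, adjusted p = 0.00384).

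The 2 cathepsins differed from each other. CTSS, which cuts antigens and the invariant chain in antigen-presenting cells, was at 68350 and 75450 in severe WB with mild WS at 49 days, at 45100, 24550 and 41580 with moderate WS, and at 57520, 63910 and 11240 at 45 days or under. Its level in non-WB was 11640 to 26030, with a median of 19560. The WB birds fell on both sides of the non-WB range, since 6 were above it and replicate 3 at 45 days or under was below it. CTSS rose 2.35-fold (log2 fold change 1.23, SE 0.295, adjusted p = 0.00765), and its other probe 2.09-fold (SE of the log2 fold change 0.25, adjusted p = 0.0068).

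CTSD, the aspartic protease that most cells keep in their lysosomes, had levels of 936 and 816 in severe WB with mild WS, 498, 313 and 519 with moderate WS and 839, 903 and 651 at 45 days or under. In non-WB it was 510, 712 and 569 with mild WS, 436, 355, 412 and 653 with moderate WS and 325, 603, 714 and 1064 with severe WS. No WB bird exceeded the highest non-WB bird. The log2 fold change of 0.36 (95% confidence interval 0.005 to 0.72, adjusted p = 0.113) did not pass the FDR. By slide, the level of CTSD was 313 to 519 on slide 3, 325 to 903 on slide 4 and 510 to 1064 on slide 5.

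MARCO, a scavenger receptor that binds bacteria and debris, had the widest spread. Its level was 817 and 1513 in severe WB with mild WS at 49 days, 1256, 261 and 253 with moderate WS and 749, 421 and 221 at 45 days or under. In non-WB it ran from 29.3 to 487, with a median of 179. The highest values came from 4 WB birds, and the other 4 lay inside the non-WB range. MARCO rose 3.76-fold, the largest change of the 9 genes and the least precise (log2 fold change 1.91, SE 0.55, adjusted p = 0.0176). Without WB replicate 2 with mild WS at 49 days the adjusted p from limma was 0.0615.

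TLR4, the receptor for bacterial lipopolysaccharide, was at 3786 and 3313 in severe WB with mild WS, at 2550, 1195 and 1835 with moderate WS and at 1957, 2880 and 1041 at 45 days or under. Non-WB birds had 748 to 1630 and a median of 927. All 8 WB birds were above that median and 6 above every non-WB bird. TLR4 rose 2.23-fold (log2 fold change 1.16, SE 0.22, adjusted p = 0.00385).

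SPI1, the transcription factor of the group, had levels of 714 and 623 in severe WB with mild WS, 569, 273 and 478 with moderate WS and 397, 561 and 123 at 45 days or under, and of 159 to 359 around a median of 215 in non-WB. The lowest of all 19 birds was the WB bird at 123. SPI1 rose 1.97-fold (log2 fold change 0.98, SE 0.26, adjusted p = 0.0124).

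CYBB was at 579 and 538 in severe WB with mild WS, at 973, 169 and 444 with moderate WS and at 238, 387 and 52.7 at 45 days or under, against 43.3 to 245 and a median of 122 in non-WB. Of the 8 WB birds, 5 exceeded all non-WB birds. CYBB rose 2.93-fold (log2 fold change 1.55, SE 0.43, adjusted p = 0.0141).

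**Figure D2:**
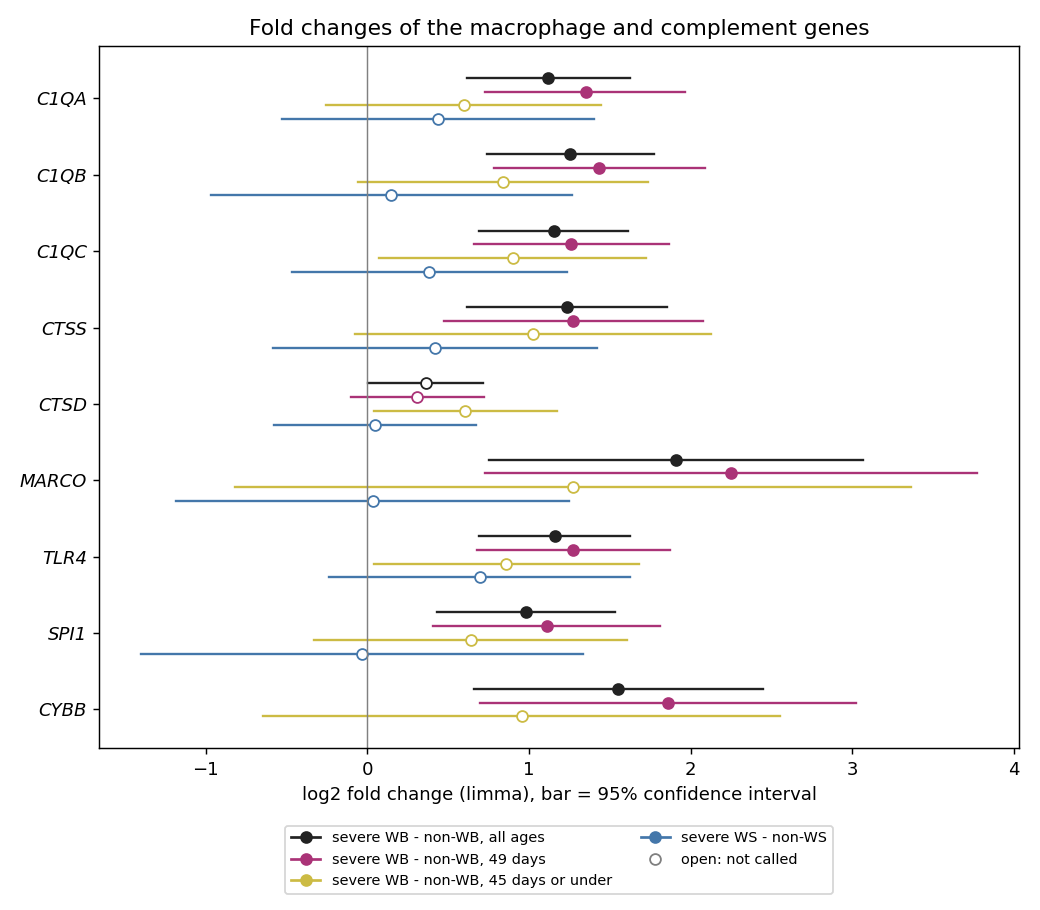
Log2 fold change of each gene (points) with its 95% confidence interval (bars) in 4 comparisons fitted with limma, where filled points were called and open points were not. In WB over all ages and at 49 days the points of 8 of the 9 genes are filled and that of CTSD is open, and in severe WS against non-WS all 8 intervals include 0.

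By age, the comparisons share slides and normalization, and both age groups enter the comparison over all ages. At 49 days (5 WB, 7 non-WB) 8 of the 9 genes were called higher, where 8.71% of all probes were. Their log2 fold changes ran from 1.11 for SPI1 to 2.25 for MARCO, and CTSD had 0.31 (adjusted p = 0.259). The median over the 9 genes was 1.27, and -0.03 over all probes. At an unadjusted p under 0.05 from limma, 5916 of all 34281 probes were higher and 6791 lower at this age. Without either WB bird with mild WS at 49 days, 0 of the 9 genes and 0 of all probes were called by limma. In those fits 8 of the 9 were under that unadjusted limit. The log2 fold changes moved less, since with any 1 array left out they were at least 1.11 for C1QA, 1.25 for C1QB, 1.12 for C1QC and 1.15 for TLR4. Without non-WB replicate 2 with mild WS, non-WB replicate 4 with moderate WS or WB replicate 1 with moderate WS, 4 of the 9 were called, beside 5.25%, 4.81% and 2.47% of all probes called higher. At 49 days 4 of the 9 were called with the replicate number as a block (1.76% of all probes), 4 without a detection filter (4.32%) and 0 with the median signal of each array as a covariate (0%, 4 of the 9 at an unadjusted p under 0.05).

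At 45 days or under there were 3 WB and 4 non-WB birds, with non-WB replicate 4 on slide 5 and the others on slide 4. With slide in the fit, the fold changes thus rest on the 3 WB and 3 non-WB birds of slide 4. At this age limma called 0 of the 9 genes, with 0% of all probes called higher. At an unadjusted p under 0.05 were 3 of the 9 genes, and of all 34281 probes 1848 higher and 1779 lower. The methods' t-test, run here without the batch removal of the methods or a slide term, gave 0 of the 9 at that unadjusted limit. It gave 1838 of all probes there. All 9 log2 fold changes were above 0, from 0.595 for C1QA to 1.27 for MARCO, with adjusted p-values of 0.469 or more except for C1QC and CTSD, which were just below that. WB replicate 3 of this age was the lowest of the 8 WB birds for every gene except CTSD. For MARCO, TLR4 and CTSD that bird was above the non-WB median. Its median array signal of 121.8 was the lowest of the WB part. Without it, C1QB, C1QC, CTSS and SPI1 were called higher, as were 4.85% of all probes. A difference in the change between severe WB and non-WB was not detectable between the ages in any of the 9 genes (interaction term in limma, 0 called, 0 with an unadjusted p under 0.05, smallest adjusted p = 0.984). The interval of that difference was wide, from -0.51 to 1.71 on the log2 scale for C1QB.

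Split further by striping at 49 days, the WB birds with mild WS had the larger differences from non-WB birds of the same striping. There the log2 fold change was 1.99 for C1QA (SE 0.37, adjusted p = 0.0132), 1.78 for C1QB (SE 0.475, adjusted p = 0.0324), 1.60 for C1QC (SE 0.42, adjusted p = 0.0304) and 1.55 for TLR4 (SE 0.42, adjusted p = 0.033). The other 5 genes had log2 fold changes of 0.56 to 2.76 and did not pass. Of all probes, 4.85% were called higher in this comparison. Among birds with moderate WS, none of the 9 was called (0 of all probes, 4132 with an unadjusted p under 0.05). C1QB had 1.06 there and CTSD 0.11. The difference between the 2 striping levels was not tested. Both WB birds with mild WS at 49 days lay on slide 5 and all 3 with moderate WS on slide 3, so that among these WB birds striping level and slide cannot be told apart.

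Within each slide, all 9 genes had a higher mean log2 level in severe WB. This is no further check on the fits above. With slide in those fits, slide 4 gives the fold changes at 45 days or under and slide 3 those with moderate WS. The differences were 0.11 to 1.67 on slide 3 (3 WB, 3 non-WB, median 0.85), 0.595 to 1.27 on slide 4 (3 and 3, median 0.86) and 0.365 to 2.83 on slide 5 (2 and 5, median 1.90). On slide 5 alone 7 of the 9 genes and 15.3% of all probes were called higher by limma. On slide 3 alone and on slide 4 alone 0 of the 9 genes and 0 of all probes were called, with 5 and 1 of the 9 at an unadjusted p under 0.05.

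The brightness of an array moved with these genes. The WB birds with the highest levels had the brightest arrays, with median signals of 273.3 and 297.9 for those with mild WS at 49 days, and their shares of spots well above background were 78.33% and 78.61% against 70.65% to 75.83% in non-WB. With the log2 median signal of each array as a covariate beside the slide, 0 of the 9 genes were called over all ages (5 at an unadjusted p under 0.05), and 124 of all probes. The 9 log2 fold changes then lay between 0.31 for CTSD and 1.14 for MARCO, with 0.81 for C1QB (adjusted p = 0.119). This covariate was added after the values had been seen. Brightness and WB were linked but not the same in these arrays. Severe WB arrays at 121.8, 157.6 and 170 were no brighter than the brightest non-WB array, at 179.3. The part of brightness in the levels was not tested further.

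The wider lists of related genes are described by counts, beside the 13.3% of all probes called higher and the 15.3% called lower in severe WB over all ages. Listed genes with no matched probe, or not detected on every WB array, are not in these counts. Of 20 other myeloid genes tested, 14 rose and 0 fell, with a median log2 fold change of 0.91. LYZ, lysozyme, had 1.42 (SE 0.35, adjusted p = 0.00916) and FCER1G, the signalling chain of Fc receptors, 1.23 (SE 0.245, adjusted p = 0.00422).

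Of 17 other lysosomal genes, 14 rose, with a median of 0.68, so that CTSD was among the minority of lysosomal genes not called. The largest of them were CTSK (1.22), CTSB (1.05), HEXA (1.00) and CTSA (0.94), of which all but HEXA encode cathepsins.

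Of 7 genes of the phagocyte NADPH oxidase and its relatives, 5 rose, among them the gene listed as NCF1C (log2 fold change 1.74, SE 0.44, adjusted p = 0.0099) and NCF4 (0.84, SE 0.17, adjusted p = 0.0042), which encode cytosolic subunits. NOX4, an oxidase of non-phagocytic cells, fell by 0.75 (adjusted p = 0.0154).

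Of 27 complement genes listed other than C1q, 13 had a matched probe and 8 were tested. Of these 8, 5 rose and 1 fell. C1S and C1R, the proteases that act with C1q in the C1 complex, had log2 fold changes of 1.28 (SE 0.26, adjusted p = 0.00452) and 1.201 (SE 0.235, adjusted p = 0.0041), close to those of the C1q chains. CLU, which binds the terminal complex, had 1.09 (SE 0.32, adjusted p = 0.02). CFD, the protease of the alternative pathway and a product of adipocytes, fell by 0.55 (adjusted p = 0.0107) and is named after its value was seen.

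Of 12 genes around the Toll-like receptors, 4 rose and 0 fell, with a median of 0.28. They were LY96, the partner of TLR4 in binding lipopolysaccharide (1.28, SE 0.25, adjusted p = 0.00397), TLR1B (1.02), TNFAIP3 (0.48) and the adaptor MYD88 (0.42).

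**Figure D3:**
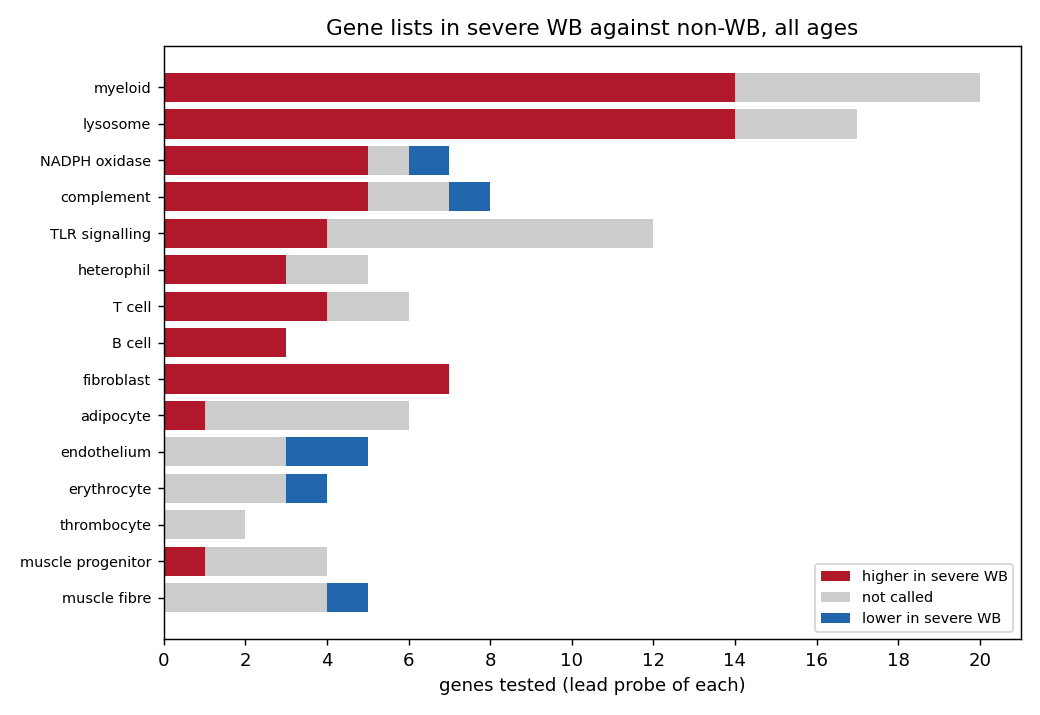
Number of genes tested in each list, by their lead probe, that were called higher (red), called lower (blue) or not called (grey) in severe WB against non-WB over all ages. Higher calls fill 14 of 20 myeloid and 14 of 17 lysosomal genes, and also 7 of 7 fibroblast genes.

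Markers of some other cells moved in severe WB too, and their counts stand beside 13.3% of all probes called higher and 15.3% called lower. All 7 fibroblast genes tested rose, with FN1 at a log2 fold change of 1.205 and LUM at 1.11, and the summed level of that list was 313000 to 565700 in severe WB at 49 days against 206000 to 282800 in non-WB of that age. Of 5 heterophil genes 3 rose (MMP9 by 3.73, DEFB4A by 2.45 and S100A12 by 1.36 on the log2 scale), with sums of 3462 to 19270 against 670.6 to 3357. Heterophils, the granulocytes of birds, also express SPI1 and CYBB. T cell genes rose in 4 of 6 (sums of 11840 to 23830 against 10250 to 12750) and B cell genes in 3 of 3 (1864 to 5531 against 819.4 to 2111). In endothelium 2 of 5 fell (TEK and CDH5) and in muscle fibre 1 of 5 (MYL1). Of 4 erythrocyte genes SLC4A1 fell, while the 3 haemoglobin genes HBA1, HBAD and HBBA had 0.59, 0.71 and 0.58 and were not called, and the sums of that list were 78850 to 178900 in severe WB at 49 days against 46960 to 90960. LPL alone of 6 adipocyte genes and MYOG alone of 4 genes of muscle progenitors rose. In lists this short, 1 call is not far from the share over all probes and is not read as a change of that cell type. The 2 thrombocyte genes had log2 fold changes of 0.87 (THBS1, adjusted p = 0.0538) and 0.36 (F13A1, adjusted p = 0.162) and were not called. In severe WB at 49 days 6 of 6 probed heterophil genes, 7 of 7 fibroblast genes, 6 or 7 of 7 T cell genes and 3 of 4 B cell genes were detected on each array, and in non-WB of that age 5 or 6, 7, 6 or 7 and 3. Within the WB birds at 45 days or under these sums ranged from 1673 to 14530 for heterophils and from 212300 to 460200 for fibroblasts. The part of these cells in the levels of the macrophage and complement genes was not tested.

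In the WS part, which was not tested against the WB part, none of the genes was called at any severity. Of the 9 genes, 8 passed the detection filter, and CYBB, well above background on 18 of 21 arrays, did not. In each of the 6 comparisons between non-WS, mild, moderate and severe WS, which share groups, limma called 0 of the 8 genes and 0% of the 32384 probes, with 0 of the 8 at an unadjusted p under 0.05. The methods' t-test, again without batch removal or a slide term, put 1 of the 8, TLR4, under that limit in mild WS against non-WS. It also put 1 there in severe against mild WS, which was CTSD, whose level varied by slide as given below. It put 0 past the FDR in any of the 6. Severe WS against non-WS gave a median log2 fold change of 0.27 over the 8 genes and -0.02 over all probes, with 7 of the 8 above 0 and a smallest adjusted p of 0.933.

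**Figure D4:**
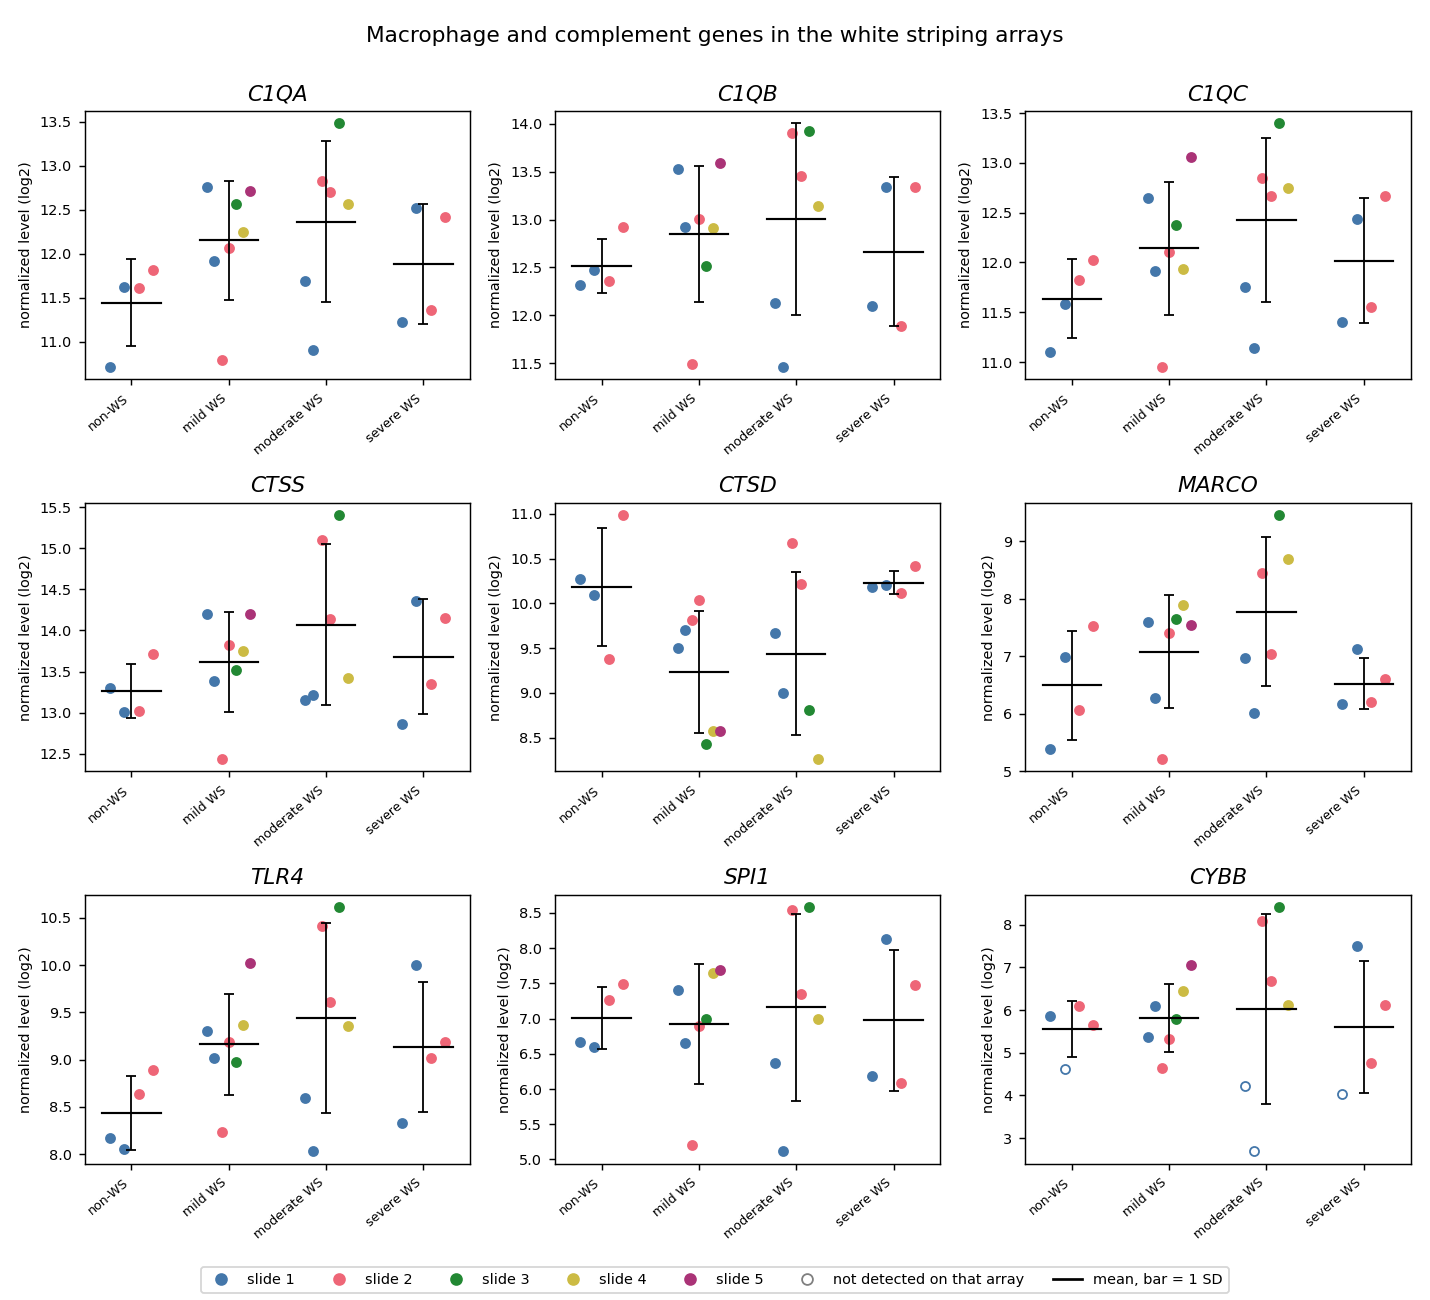
Normalized level (log2) of each of the 9 genes on the 21 WS arrays, by severity, with 1 point per bird coloured by slide, open points where the probe was not detected on that array, the group mean as a line and 1 SD as a bar. The groups overlap for all 9 genes except CTSD in severe against mild WS, and the moderate WS birds have the widest range for all 9.

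C1QA stood at 1681, 3157, 3134 and 3617 in the 4 non-WS birds and at 2390, 5893, 2633 and 5456 in the 4 with severe WS. It ran from 1783 through a median of 4857 to 6915 in mild WS and from 1922 through 6375 to 11460 in moderate WS. Each group overlapped the others. The log2 fold change against non-WS was 0.36 in mild (SE 0.44), 0.67 in moderate (SE 0.44) and 0.44 in severe WS (SE 0.46, 95% confidence interval -0.53 to 1.40).

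C1QB and C1QC followed the same birds. C1QB was at 5087, 5687, 5237 and 7756 in non-WS and at 4368, 10330, 3807 and 10340 in severe WS, a log2 fold change of 0.15 (interval -0.97 to 1.26). C1QC was at 2200, 3067, 3633 and 4167 in non-WS and at 2710, 5553, 3010 and 6505 in severe WS (0.38, interval -0.47 to 1.23). In both, replicates 2 and 4 of severe WS were above all non-WS birds and replicates 1 and 3 were not.

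For CTSS the non-WS birds had 10050, 8267, 8330 and 13420 and the severe WS birds 7473, 21090, 10390 and 18180. Moderate WS spanned 9098 to 43230. The log2 fold change of severe WS was 0.42 (interval -0.58 to 1.42). TLR4 had the largest value of the 8 genes in this comparison, at 287, 267, 398 and 475 in non-WS and 321, 1027, 518 and 581 in severe WS (0.69, SE 0.44, adjusted p = 0.933), and also in moderate WS against non-WS (0.82, SE 0.42, adjusted p = 0.375). MARCO was at 41.8, 126, 67.2 and 185 in non-WS and at 72.1, 139, 73.5 and 97.2 in severe WS, with a log2 fold change of 0.03. SPI1 was at 102, 97.0, 153 and 180 in non-WS and at 72.9, 281, 68.0 and 179 in severe WS, with -0.03. For both, the intervals reached beyond 1 on the log2 scale on either side, so that a 2-fold change either way was within the error of 4 birds against 4.

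CYBB, tested in no WS comparison, was at 58.3, 24.4, 68.8 and 50.1 in non-WS and at 16.3, 182, 27.1 and 69.8 in severe WS. It ran from 25.2 to 133 in mild WS and from 6.45 to 339 in moderate WS.

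CTSD was lower on slides 3 to 5 of the WS part, at 307 to 450, than on slides 1 and 2, at 513 to 2024. It was at 1235, 1089, 667 and 2024 in non-WS and at 1162, 1177, 1113 and 1364 in severe WS (log2 fold change 0.05, SE 0.295, adjusted p = 0.994). In mild WS it was 723, 832, 899 and 1054 on slides 1 and 2 and 346, 380 and 381 on slides 3 to 5. All 4 severe WS birds exceeded all 7 mild WS birds, which 1.14% of all probes showed in that direction. Within slides 1 and 2, with 2 birds of each group, the log2 difference of severe from mild WS was 0.593 and 0.341 for CTSD. No severe WS array lay outside slides 1 and 2, and the 2 moderate WS birds on slides 3 and 4 were also low, at 450 and 307. With the slide in the fit, severe against mild WS gave 0.45 (SE 0.28, adjusted p = 0.631). The study itself reports CTSD as increased in severe against mild WS, after its batch removal and with fewer arrays. Within slides 1, 2 and 3 the log2 difference of moderate from mild WS was -0.26, 0.52 and 0.38 for CTSD, with the sign of the other genes. On slide 1 mild minus non-WS was -0.58 for CTSD, where 7 of the 8 genes were above 0.

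Between adjacent levels, moderate against mild WS gave log2 fold changes of 0.10 to 0.765 over the 8 genes, with MARCO the largest (SE 0.47, adjusted p = 0.661). Severe against moderate WS gave -0.73 for MARCO to 0.35 for CTSD, and severe against mild WS 0.04 to 0.46. The slides went opposite ways. On slide 1, with 2 birds of each group, moderate was below mild WS for 8 of the 8 genes (median difference -0.84), and on slide 2, with 2 others, it was above mild WS for 8 of 8 (median 1.38). On slide 3, with 1 bird each, moderate WS was above for 8 of 8, and on slide 4 for 4 of 8. Severe was above moderate WS for 8 of 8 genes on slide 1 and for 0 of 8 on slide 2.

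Single birds were high or low for most of the genes at once. Leaving CTSD aside, moderate WS replicate 5 was among the 2 highest of the 21 birds for 8 of 8 genes and moderate WS replicate 3 for 6 of 8, and mild WS replicate 3 was among the 2 lowest for 6 of 8. Moderate WS replicate 5 also had the brightest array of the WS part, with a median signal of 258.6, the only one above 228.8. Fibroblast genes summed to 137800 to 260400 in mild, 176300 to 384800 in moderate and 113700 to 205400 in severe WS, against 126200 to 152700 in non-WS. B cell genes summed to 284 to 1250 in mild, 265.8 to 3519 in moderate and 409.7 to 2154 in severe WS, against 348 to 387.4 in non-WS. Erythrocyte genes summed to 51090 to 68990 in non-WS. Their sums were 19020 to 41640 in mild, 22620 to 68130 in moderate and 30050 to 47010 in severe WS. The part of brightness or of any of these cells in the levels was not tested. In the gene lists no call was made in severe WS against non-WS, where the median log2 fold change was 0.23 over 17 myeloid genes, 0.17 over 17 lysosomal genes and 0.10 over 9 complement genes. In the WB part, WB replicate 2 with mild WS at 49 days was among the 2 highest of 19 birds for 7 of 8 genes.

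**Figure D5:**
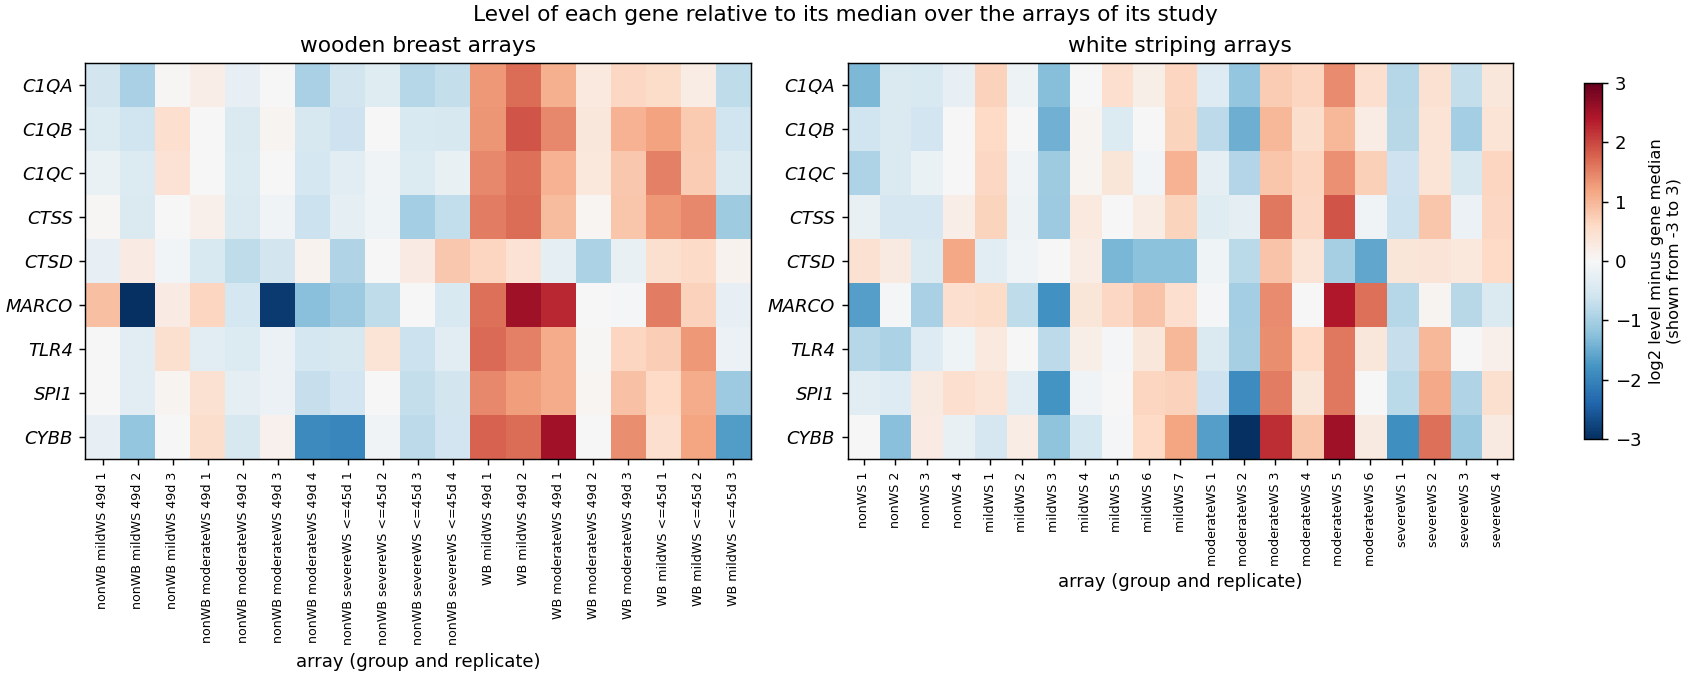
Log2 level of each gene on each array minus the median of that gene over the arrays of its part of the series (colour scale, red above and blue below the median), with arrays in columns by group and replicate. Columns tend to have 1 colour for 8 of the 9 genes, and the row of CTSD departs from the others.

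Across arrays the levels of most of the genes varied together in both parts. The correlation with the mean standardized level of the C1q chains was 0.93 for CTSS, 0.92 for SPI1, 0.91 for TLR4, 0.89 for CYBB, 0.74 for MARCO and 0.24 for CTSD over the 19 WB arrays. Over the 21 WS arrays it was 0.91 for TLR4, 0.88 for SPI1, 0.88 for CTSS, 0.84 for MARCO and -0.19 for CTSD. These are descriptions over birds that share slides and differ in array brightness, and in the WB part they hold the difference between WB and non-WB. Outside the 10 genes, those most like the C1q chains were CAPG (Pearson r = 0.965), ALDH3B1 (0.961), PINLYP (0.96), PRELID1 (0.959) and DIO3 (0.955) among 9699 genes over the WB arrays, and SLC2A6 (0.944), RGS18 (0.918), PTPN6 (0.916), PINLYP (0.909) and LBP (0.901) among 9211 over the WS arrays. PINLYP is in both lists.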

How the data were processed

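Arrays were custom 1-color Agilent chicken arrays. The authors quantified the scans with Feature Extraction 10.7.1.1, and the deposited scanner files give the background-subtracted processed signal intensity of each spot, its median and background intensities and quality flags, not normalized between arrays. The deposited value table, a linear intensity, follows the processed signal without normalization between arrays in the WB part and was normalized by them in the WS part. It served as an alternative.

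Spots of a probe were averaged, and processed signals were log2 transformed and quantile normalized over all 56401 probes, the WS (21 arrays) and WB (19 arrays) parts apart. Probes well above background, not flagged and at 20 or more on every array of a part were tested (32384 and 34281) with limma 3.58.1 in R 4.3.3, with group and slide as factors. P-values were adjusted by the Benjamini-Hochberg method over all probes tested, and calls required both the FDR (0.05) and the fold change (1.2) limits to be met. The number of arrays limits the precision. The labels do not give the farm of each bird, so that p-values measure the spread between these birds alone.

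Transcripts were named through RefSeq of GRCg7b, whose build is not that of the array (Annotation Release 103), so that no coordinates are given. A gene with several probes is represented by the one with the highest mean level. Of the pathway lists, up to 4 called genes with the largest log2 fold change are named, and the 5 genes most correlated with the C1q chains. Some genes that this rule names are not reported here. Listed symbols that matched only as a synonym of a different gene (BLNK, CD93, CD163 and ALAS2) were left out. The genes and lists were chosen with earlier results of these data known. The procedure was tested on simulated data.

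Alternatives were the order of filter and normalization, 75th percentile scaling, normexp background correction (offset of 50, on the median spot signal), the authors' intensities, other detection filters, no slide term, slide as a random block, a replicate block, only the groups compared, the methods' t-test, an FDR of 0.2, no fold change criterion, other sets of arrays and each array left out. The methods' t-test was run on the quantile-normalized values, without a slide term or the batch removal that the methods describe. Slides 3 and 4 only, and the median signal as a covariate, were added after seeing the data.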

Additional observations from a re-analysis of the deposited data

How the results depend on the processing

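In the 6 WS comparisons 0 genes were called under the 36 or 38 alternatives run for each, and in the difference between ages under the 32 run, which did not include the methods' t-test or a fit of only the groups compared. Of the WB counts over all ages (8 genes), 34 of 38 stayed within 1.5 times. The exceptions were 0 genes with slide 3 alone, with slide 4 alone, with slides 3 and 4 only, and with the median signal of each array as a covariate, against 7 on slide 5 alone; the last 2 of those 4 settings were chosen after seeing the data. Leaving out 1 array gave 7 to 9 genes. Without WB replicate 1 or 2 with mild WS at 49 days, calls over all probes went from 9805 to 5489 or 5122. At 49 days (8 genes), 4 were called without a detection filter, 4 with a replicate block and 0 with the signal covariate, and 0 to 8 with 1 array left out. At 45 days or under (0 genes) the range was 0 to 4. With a replicate block, 1648 instead of 6467 probes were called at 49 days and 6575 over all ages. The numbers were not taken as pairs, since same-numbered WB arrays had correlations of -0.298 to 0.374 and WS arrays of -0.231 to 0.327, and the block changed no other count of genes by over 1.5 times. At an FDR of 0.2, 15010 probes were called over all ages and 14501 at 49 days, the signal covariate left 124 and 0, and the methods' t-test gave 3500 at 49 days. With the authors' intensities, which have a median shift of 0.30 over all probes (0.44 at 49 days), 86.4% of calls were higher instead of 46.5% (92.7% instead of 46.2% at 49 days, 11216 probes), and CTSD was called (0.72, adjusted p = 0.0254 in limma), as it was without WB replicate 2 with moderate WS (0.45, adjusted p = 0.0449). All 9 WB log2 fold changes over all ages kept their sign. In severe WS against non-WS the sign turned for SPI1 (0.008 at the 75th percentile, 0.006 with the authors' intensities), MARCO (-0.027 with normexp, -0.003 with the authors' intensities, -0.185 with the signal covariate), C1QB (-0.037) and CTSD (-0.04), both with the signal covariate. With 1 array left out, C1QB ranged from -0.143 to 0.476, CTSD from -0.31 to 0.271, SPI1 from -0.528 to 0.362 and MARCO from -0.325 to 0.365. The causes were not tested. Precision was limited by 2 to 7 birds per group, and dim probes by background, with signal over background from 4.04 to 12.65.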
